A study of Musca domestica with 29 samples.

Results

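Abdomens of house fly (Musca domestica) males carrying 1 of 2 young Y chromosomes were compared by RNA-seq: YM males of strain IsoCS against IIIM males of strain CSrab, labelled IIIM #2. The comparison rests on 6 of the 29 libraries of the series, 3 biological replicates of each genotype, taken as the labels name them. A single IsoCS female abdomen and a single CSrab female abdomen show which differences were also present without a male-determining chromosome. The other 6 male abdomens, from YM(III) males of strain bwbCS and IIIM #1 males of strain CS, entered the fit so that all 4 genotypes shared 1 estimate of the spread between libraries. According to the labels all males share 1 isogenic background apart from the YM or IIIM chromosome, with a copy of chromosome III also different in YM(III) males, and the females are isogenic with each other. Flies were dissected individually, untreated as far as the labels say, and no ages are given. With 1 strain of each type, the proto-Y and anything else that differs between IsoCS and CSrab cannot be told apart.

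Sex in the house fly is set by a male-determining factor that sits at different places in different males. Where it lies on the Y chromosome the male is called YM, and where it lies on the third chromosome that chromosome acts as a young Y and the male is called IIIM. A IIIM male therefore carries 1 copy of chromosome III with the factor and 1 without it, whereas a YM male has ordinary copies of chromosome III. Muller elements are the chromosome arms shared across flies. The deposited table assigns genes to elements A to F, of which A corresponds to house fly chromosome III and F to its X chromosome.

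The values were normalized counts, which the authors obtained by dividing the reads of each library by a factor for that library, so that levels of 1 gene can be compared between libraries but not levels of different genes. Depth differed widely. Replicates 1, 2 and 3 held 4663456, 788942 and 43474931 reads in YM and 4631150, 791295 and 24810287 in IIIM #2, so that replicate 2 was shallow in both. In those shallow libraries 1 read was worth 7.66 and 8.80 normalized counts, so their values below about 10 rest on a single read or none. The females held 30527891 (IsoCS) and 13898210 reads (CSrab). Of the genes that mark a tissue, bcd, whose mRNA mothers load into eggs, measured 181 in the IsoCS female, 78.2 in the CSrab female, 0 to 3.40 in YM males and 0 to 0 in IIIM #2 males, and the neuropeptide gene pdf, at a mean of 1051 in YM heads, measured 4.00 to 7.66 and 0 to 8.80 in the male abdomens. Genes that mark gut, testis or muscle carry no names in the table and were not checked.

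Between YM and IIIM #2 abdomens 97 of 11342 tested genes differed (0.855%), 57 higher in YM (0.503%) and 40 lower (0.353%), at an adjusted p under 0.05 by limma with Benjamini-Hochberg adjustment over all tested genes. In each of the 97 the 3 YM libraries did not overlap the 3 IIIM #2 libraries, which was also so for 24.1% of all tested genes. The differences were mostly large. Among the genes higher in YM the log2 difference ranged from 1.15 to 7.97 with a median of 2.04, and 11 differed by a log2 of 4 or more; the highest belongs to LOC109613755, which had 0 reads in IIIM #2, so that it depends on the 1 added to each value. Among the genes lower in YM the size ranged from 0.97 to 6.48 with a median of 2.91, and again 11 reached a log2 of 4. The medians were the same when the 5 genes with 0 reads in every library of 1 group were set to the difference that 3 reads allow. These 5 lie beyond the medians, so unchanged medians do not show how far the counts of 0 affect the sizes. Of the 97, 7 genes higher and 5 lower reached the minimum of 10 in 3 male libraries only with the libraries of the group where they were high, LOC109613755 and LOC105262582 among them. None of the 97 has a gene symbol, and they are given by their identifiers.

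The number of genes called depended on every library. Leaving out YM replicate 1, 2 or 3 gave 9, 15 and 50 genes, leaving out IIIM #2 replicate 1, 2 or 3 gave 14, 8 and 7, and leaving out both shallow replicate 2 libraries gave 6. The deeply sequenced libraries numbered 3 deviated together from their group means (correlation 0.46 across genes), so the comparison was also made within replicates 1 and 2, where 159 genes were called, 103 higher and 56 lower in YM. Of these, 48 were among the 97 (49.5% of the 97 and 30.2% of the 159). The edgeR quasi-likelihood test on recovered reads gave 51 genes, 50 of them among the 97. In the authors' deposited table, whose mean values hold replicates 1 and 2 only, 9346 genes have an adjusted p. It is under 0.05 for 479 of them, 336 higher in YM and 143 lower. Of the 97, 54 are among these in the same direction, and 13 have no adjusted p there. The genes called in each of the 6 fits with a library left out were 6: LOC101891025, higher in YM, and LOC105262206, LOC101901473, LOC109613915, LOC101896886 and LOC105261776, lower in YM. Of the rest, 55 were called in none of those fits. LOC105261776, which is not among the largest differences given next, measured 4.26, 7.66 and 1.92 in YM and 73.4, 79.2 and 80.4 in IIIM #2 (log2 difference −3.94, SE 0.44, limma adjusted p = 0.00572), and 2.46 and 69.7 in the females.

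The genes with the largest differences are shown with the value in every library, taken as the 10 largest in each direction among called genes that averaged 50 or more over the 6 libraries. They are ordered by whether the other 2 male genotypes lay nearer to YM or to IIIM #2 on the log2 scale.

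**Figure D1:**
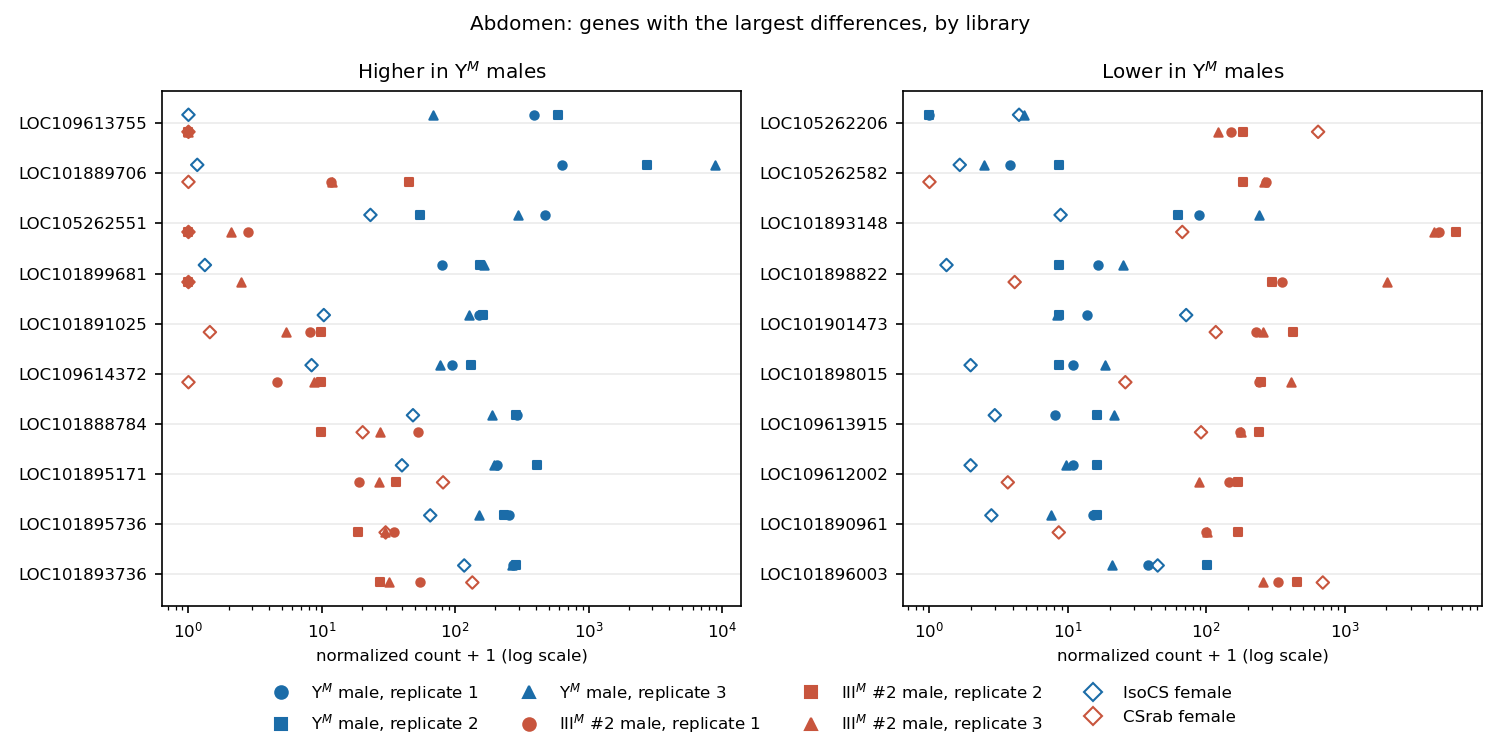
Normalized counts plus 1 (log scale) in abdomen of the 10 genes with the largest difference in each direction, with filled symbols for the 3 male libraries of each genotype and open diamonds for the single females. In all 20 genes the YM and IIIM #2 males do not overlap, while the females often lie at far lower levels than the males.

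In 5 of the 10 genes higher in YM both other male genotypes lay nearer to YM, so that IIIM #2 had the low level. LOC101891025, which shares the smallest adjusted p with 2 genes lower in YM, measured 150.4, 161 and 126 in YM replicates 1 to 3 and 7.16, 8.80 and 4.38 in IIIM #2, without overlap (log2 difference 4.27, SE 0.37, limma adjusted p = 0.00218). The other males lay on the YM side, at 147 to 317 in YM(III) and 83.8 to 132 in IIIM #1, and the IsoCS female had 9.34 against 0.447 in CSrab. LOC101889706 measured 634, 2734 and 8797 in YM and 10.7, 44.02 and 10.96 in IIIM #2 (log2 difference 7.07, SE 0.84, limma adjusted p = 0.00706). It was abundant in both remaining male genotypes (8819 to 14782 in YM(III), 4871 to 9711 in IIIM #1) and close to absent from females, at 0.164 and 0. Its YM values were spread widely, and the lowest was still above every IIIM #2 library. LOC105262551 measured 471, 53.6 and 295 in YM, with the lowest value in the shallow replicate 2, and 1.79, 0 and 1.10 in IIIM #2, where 4 reads were found in all (log2 difference 6.77, SE 0.89, limma adjusted p = 0.0132). The other males ranged from 20.3 to 691, and the IsoCS female held 22.1 and the CSrab female 0.

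LOC109614372 measured 93.6, 130.2 and 75.5 in YM and 3.58, 8.80 and 7.67 in IIIM #2 (log2 difference 3.75, SE 0.69, limma adjusted p = 0.0387), with 19.7 to 146 in the other males, 7.37 in the IsoCS female and 0 in the CSrab female. LOC101895171 measured 204, 406 and 195 and 17.9, 35.2 and 25.6 (log2 difference 3.27, SE 0.50, limma adjusted p = 0.0247). In females this gene went the other way, at 38.8 in IsoCS and 79.99 in CSrab, the only gene of the 57 that was at least 2-fold lower in the IsoCS female. The other males, at 62.7 to 244, overlapped YM and lay above IIIM #2.

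In LOC101888784 and LOC101895736 it was YM that stood apart. LOC101888784 measured 291, 283 and 189 in YM and 51.9, 8.80 and 26.3 in IIIM #2 (log2 difference 3.37, SE 0.64, limma adjusted p = 0.0408), and the other males ranged from 11.1 to 55.7. LOC101895736 measured 252, 229.7 and 149.9 and 33.99, 17.6 and 28.5 (log2 difference 2.95, SE 0.44, limma adjusted p = 0.0214), with 9.86 to 48.95 in the other males. Both genes lay higher in the IsoCS female as well, at 47.2 against 19.2 and 63.9 against 29.05.

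The remaining 3 genes higher in YM had mixed patterns. LOC109613755 had 0 reads in all 3 IIIM #2 libraries and measured 390.1, 589.6 and 66.6 in YM (limma adjusted p = 0.0399). With the reads of each group pooled, and 3 reads over the group as the limit of a count of 0, it was at least 120-fold higher in YM. It had 0 reads in both females and was detected unevenly in IIIM #1, at 136, 30.1 and 0. LOC101899681 measured 78.02, 153 and 164 in YM and 0, 0 and 1.46 in IIIM #2 (log2 difference 6.55, SE 1.02, limma adjusted p = 0.0247), and both females held less than 1. LOC101893736 was even within YM at 268, 283 and 266, against 53.7, 26.4 and 30.7 in IIIM #2 (log2 difference 2.92, SE 0.42, limma adjusted p = 0.0207), while the females did not follow, at 116 in IsoCS and 133 in CSrab. Of these 10 genes only LOC101891025 was called whichever library was left out, LOC101889706 was called in 5 of the 6 fits, LOC105262551 in 3, and LOC109613755, LOC101899681, LOC109614372 and LOC101888784 in none.

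In 6 of the 10 genes lower in YM both other male genotypes lay nearer to IIIM #2, so that YM had the low level. LOC105262206 was nearly silent in YM, at 0, 0 and 3.85, and measured 150.3, 185 and 121 in IIIM #2 (log2 difference −6.48, SE 0.59, limma adjusted p = 0.00218). The females repeated this difference at 3.44 in IsoCS and 642 in CSrab, and the other males ranged from 45.3 to 85.9. LOC109613915 measured 7.09, 15.3 and 20.4 in YM and 174, 238 and 178 in IIIM #2 (log2 difference −3.79, SE 0.36, limma adjusted p = 0.00218), and 1.97 against 90.7 in the females. In both genes the IsoCS female, like the YM males, was low and the CSrab female high.

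LOC101901473 measured 12.8, 7.66 and 7.40 in YM and 227, 423 and 258 in IIIM #2 (log2 difference −4.87, SE 0.54, limma adjusted p = 0.00572). The IsoCS female lay above every YM male, at 70.6 against 116 in the CSrab female. LOC101893148 measured 87.9, 61.3 and 242 in YM and 4770.0, 6347 and 4427 in IIIM #2 (log2 difference −5.54, SE 0.64, limma adjusted p = 0.00676), with much lower levels in the females (7.86 and 66.1) that differed in the same direction. LOC101898015 measured 9.93, 7.66 and 17.5 and 238, 246 and 409 (log2 difference −4.59, SE 0.71, limma adjusted p = 0.0247), and 0.983 and 25.03 in the females. LOC101896003 measured 36.9, 99.5 and 19.8 and 327, 449 and 257 (log2 difference −2.97, SE 0.48, limma adjusted p = 0.0247), and 43.6 and 694 in the females, again with both sexes of IsoCS low.

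In LOC105262582 and LOC101898822 it was IIIM #2 that stood apart. LOC105262582 measured 2.84, 7.66 and 1.48 in YM and 268, 185 and 262 in IIIM #2 (log2 difference −5.76, SE 0.71, limma adjusted p = 0.00761), and no other male library exceeded 5.54. The CSrab female had 0 reads of it and the IsoCS female 0.655, so high levels occurred in CSrab males and not in the female of that strain. The gene entered the test only through its 3 IIIM #2 libraries and was not tested with any of them left out. LOC101898822 measured 15.6, 7.66 and 23.8 and 351, 299 and 2039 (log2 difference −5.29, SE 1.01, limma adjusted p = 0.0429), the IIIM #2 value of replicate 3 being far above the others, and the other males ranged from 8.30 to 120.5. LOC109612002 (9.93, 15.3 and 8.73 in YM, 145, 167 and 88.1 in IIIM #2; log2 difference −3.43, SE 0.50, limma adjusted p = 0.0207) and LOC101890961 (14.2, 15.3 and 6.51 and 98.4, 167 and 99.8; log2 difference −3.27, SE 0.48, limma adjusted p = 0.0207) completed the 10. Of these 10, LOC105262206, LOC101901473 and LOC109613915 were called whichever library was left out, LOC101893148 in 5 of the 6 fits, and LOC101898822 in none.

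Over all 97 genes the most frequent arrangement was that both other male genotypes lay nearer to IIIM #2 than to YM, on the log2 scale of group means. This was so for 38 of the 57 genes higher in YM (66.7%) and 27 of the 40 lower (67.5%), and for 51.0% of all tested genes. Both lay nearer to YM in 6 and 4 genes (10.5% and 10%, against 21.3% of all tested genes). The arrangement that follows the type of proto-Y, with YM(III) nearer to YM and IIIM #1 nearer to IIIM #2, held for 3 genes higher (5.26%) and 6 lower (15%), against 12.5% of all tested genes. YM(III) and IIIM #1 give a second contrast of a YM with a IIIM genotype that shares no library with the first. There, limma called 21 of 11342 genes (0.185%). None of the 97 was called in the same direction, 1 was called in the opposite one, and the log2 difference had the same sign for 12 of the 57 genes higher in YM (21.1%) and for 17 of the 40 lower (42.5%), beside 39.6% of all tested genes. Strain bwbCS males differ from IsoCS males also in a copy of chromosome III, so this contrast is not a repeat of the first.

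The single females of the 2 strains differed in the same direction as the males in 77 of the 97 genes (79.4%), beside 56.3% of all tested genes. Among the 74 genes with at least 10 in 1 of the females it was 65 (87.8%), beside 60.6% of such genes among all tested. These are values of 1 library for each strain, with no test. Genes lower in YM were also lower in the IsoCS female in 33 of 40 cases, and in 19 (47.5%) by at least 2-fold, where 5.27% of all tested genes were at least 2-fold lower in that female. Genes higher in YM were higher in the IsoCS female in 44 of 57 cases, and in 16 (28.1%) by at least 2-fold, beside 9.79% of all tested genes. The genes were chosen by their difference in males, and in females the median log2 difference was 0.52 against 2.04 for genes higher in YM and −0.96 against −2.91 for genes lower. Both females lay under 10 in 12 of the genes higher and 11 of the genes lower. An interaction of strain and sex was fitted in limma by taking each single female to vary as the males do, which cannot be checked without female replicates. Under that assumption 2 of 11486 genes passed (0.0174%), with 322 at an unadjusted p under 0.05 (2.8%). Neither of the 2 was among the 97, of which 24 genes higher and 12 lower had an unadjusted p under 0.05. The interaction contains the same male difference by which the 97 were chosen. These counts therefore cannot be set against the 2.8% of all genes. That none of the 97 passed does not show that the strain difference was alike in both sexes.

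**Figure D2:**
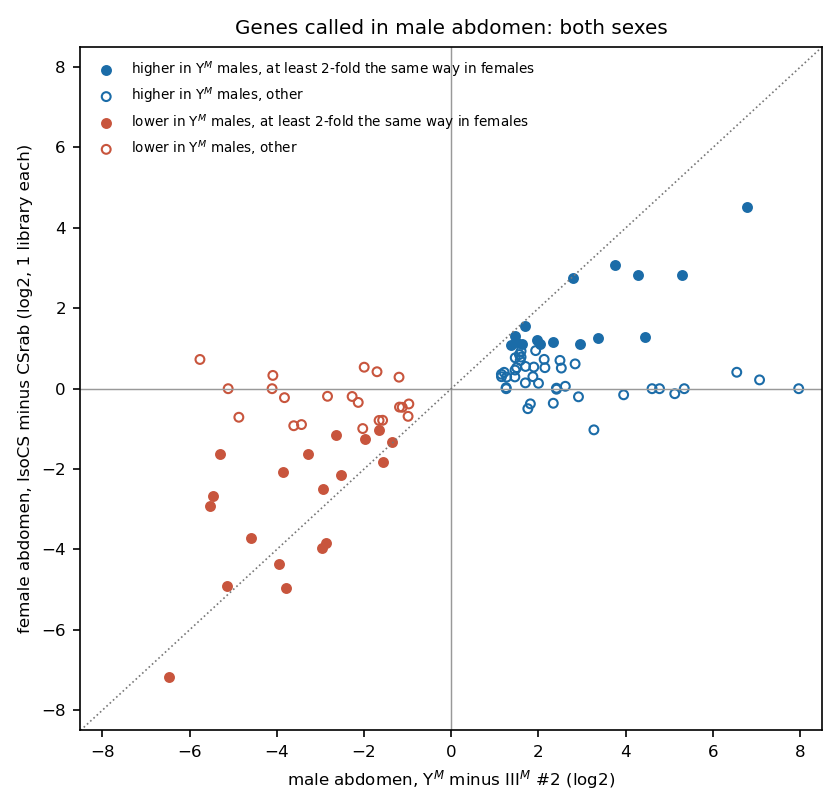
Log2 difference between strains of the 97 genes called in male abdomen, in males (horizontal, 3 libraries a genotype) and in females (vertical, 1 library a strain), with filled points for genes that differ at least 2-fold the same way in females and a dotted line of equality. Of the genes lower in YM, 19 are filled, and 16 of those higher; the points along the horizontal line at 0 include genes with no reads in either female.

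In males of these strains the head libraries showed part of the same differences. The head table was normalized separately and fitted by itself, and limma called 102 of 12060 genes there (0.846%), 46 higher and 56 lower in YM. In all, 19 genes were called in both tissues, 19.6% of the abdomen calls and 18.6% of the head calls, each in the same direction. Of these 19, 16 were lower in YM, out of 37 lower genes that were tested in head, and 3 were higher, out of 48. The sign in head equalled that in abdomen for 31 of the 37 lower genes (83.8%) and 30 of the 48 higher ones (62.5%), beside 59.4% of all genes tested in both tissues. The median log2 difference in head was −1.17 for the lower genes and 0.09 for the higher ones. Whether the difference itself differed between tissues was not tested, since the tables are on separate scales. Nothing in the labels says whether head and abdomen of a number came from 1 fly.

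The 3 genes higher in YM in both tissues were LOC105262551, LOC101891025 and LOC101892769. In head LOC105262551 measured 262 ± 34.9 in YM and 0.47 ± 0.815 in IIIM #2 (SD, n = 3; log2 difference 7.61, limma adjusted p = 2.96e-05) and LOC101891025 measured 395 ± 158 and 18.7 ± 1.52 (log2 difference 4.23, limma adjusted p = 0.000239). LOC101892769 measured 66.7, 99.5 and 76.4 in YM and 5.37, 0 and 6.94 in IIIM #2 abdomens (log2 difference 4.45, SE 0.76, limma adjusted p = 0.0284), and 26.4 ± 13.2 in YM heads with 0 in every IIIM #2 head (limma adjusted p = 0.0199). All 3 genes were also higher in the IsoCS than in the CSrab female abdomen. Among the genes lower in both, LOC101901473 measured 7.59 ± 3.94 in YM heads and 1716 ± 755 in IIIM #2 heads (log2 difference −7.65, limma adjusted p = 0.000138). The females had the same direction in both tissues, at 3.27 in IsoCS and 1442 in CSrab heads and at the closer values given above in abdomen. LOC105262582 measured 18.4 ± 2.95 and 448 ± 20.7 in male heads (log2 difference −4.54, limma adjusted p = 0.00225), and 19.6 and 12.8 in female heads, so that in both tissues it was high in CSrab males and not in CSrab females. LOC101898015, called in abdomen, overlapped between the genotypes in head, at 3813 ± 1169.6 and 4273 ± 869 (log2 difference −0.20, limma adjusted p = 1).

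Of all pairs of genes that lie next to each other in the RefSeq assembly Musca_domestica.polishedcontigs.V.1.1, 1 pair was called, LOC101896886 and LOC101897057, both of element A. This pair was picked after its values were seen. The number of neighbouring pairs with both genes tested was not counted, so 1 pair has no share over all pairs beside it. Of all tested genes 0.855% were called. LOC101896886 measured 1.42, 0 and 0.296 in YM abdomens and 41.2, 44.02 and 71.6 in IIIM #2 (log2 difference −5.14, SE 0.57, limma adjusted p = 0.00572), and LOC101897057 measured 24.1, 15.3 and 15.99 and 152, 96.8 and 183 (log2 difference −2.88, SE 0.54, limma adjusted p = 0.0399). Both were also lower in the IsoCS female, at 0.655 against 48.7 and 6.23 against 103. In male heads both were called lower in YM again (log2 −5.39 and −2.88, limma adjusted p 9.73e-05 and 0.00169), while in abdomen LOC101897057 was called in none of the fits with a library left out. The 2 genes of this pair differed the same way in both sexes and both tissues, and how often neighbours do so was not tested.

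**Figure D3:**
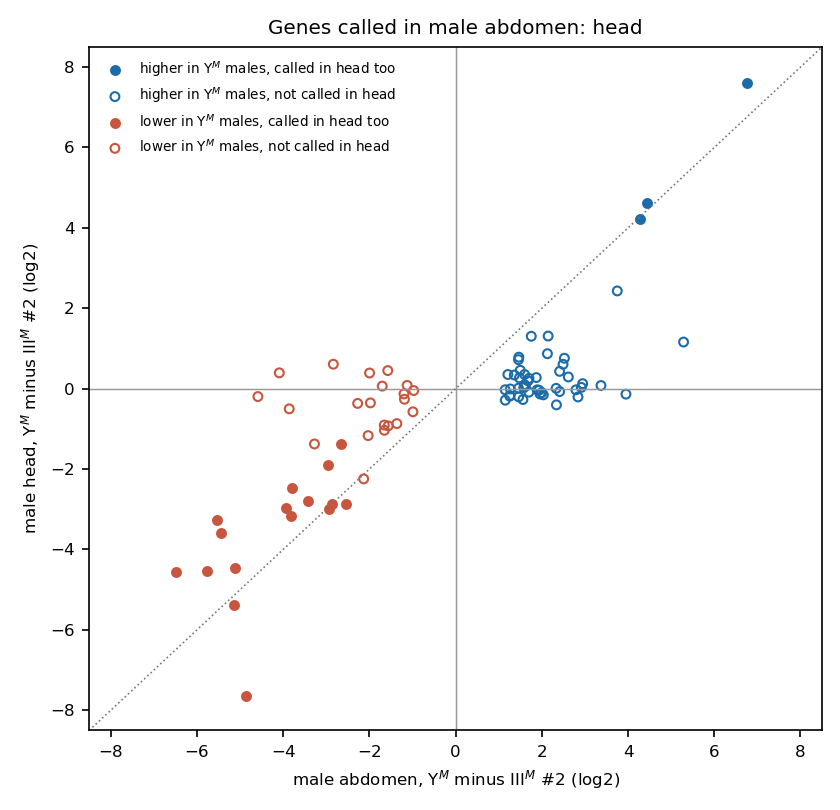
Log2 difference between YM and IIIM #2 males in abdomen (horizontal) and head (vertical) of the genes called in abdomen that were also tested in head, with filled points for genes called in head and a dotted line of equality. Of the genes lower in YM 16 of 37 are filled, and of those higher 3 of 48, most of which lie near 0 in head.

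Chromosome III, on which the IIIM males carry their male-determining factor, held 16 of the 57 genes higher in YM (28.1%) and 4 of the 40 lower (10%), where it held 15.3% of all tested genes. Among genes with an assigned element the shares were 34.8%, 12.5% and 17.99%. No enrichment test was made. With the other settings that called more than 20 genes higher in YM, element A held 22.2% to 32.5% of the higher genes and 4.76% to 17.5% of the lower ones. The median log2 difference of all tested genes of element A was 0.11, beside 0.05 for all tested genes, and with TMM factors the medians were 0.07 and 0.01. The fits without YM replicate 1, YM replicate 2, IIIM #2 replicate 2 or IIIM #2 replicate 3 left no element A gene among the 1 to 5 genes called higher. Nor was there any among the 2 genes called higher without both replicate 2 libraries. Without IIIM #2 replicate 1, element A held 2 of 8. Element F, the X chromosome, had 34 tested genes, none of them called by limma or edgeR, with 4 at an unadjusted p under 0.05 and 1 called by DESeq2. Over all genes 16.2% had an unadjusted p under 0.05, edgeR called 0.45% and DESeq2 called 5.47% of those with an adjusted p.

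The 16 chromosome III genes higher in YM were chosen by male abdomens, and the females and heads are other libraries. Their median log2 difference was 2.07 in male abdomen, 0.22 between the females and 0.07 in male head. In the females 12 of the 16 had the same direction and 1 reached 2-fold, LOC101895229 at 108 in IsoCS and 47.8 in CSrab, beside 15 of the 41 higher genes outside element A. Of the 14 tested in head none was called by limma, and 2 had an unadjusted p under 0.05. Between YM(III) and IIIM #1 males 2 of the 16 were above 0, at a median of −0.68. LOC101893736, given above, was 1 of these 2 (log2 difference 0.44), and between the females it went the other way (−0.20). LOC101899277, a gene of smaller change chosen after its values were seen, measured 494, 429 and 297 in YM and 174, 106 and 98.3 in IIIM #2 (log2 difference 1.70, SE 0.27, limma adjusted p = 0.0247). Its log2 difference between YM(III) and IIIM #1 males was −0.89.

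**Figure D4:**
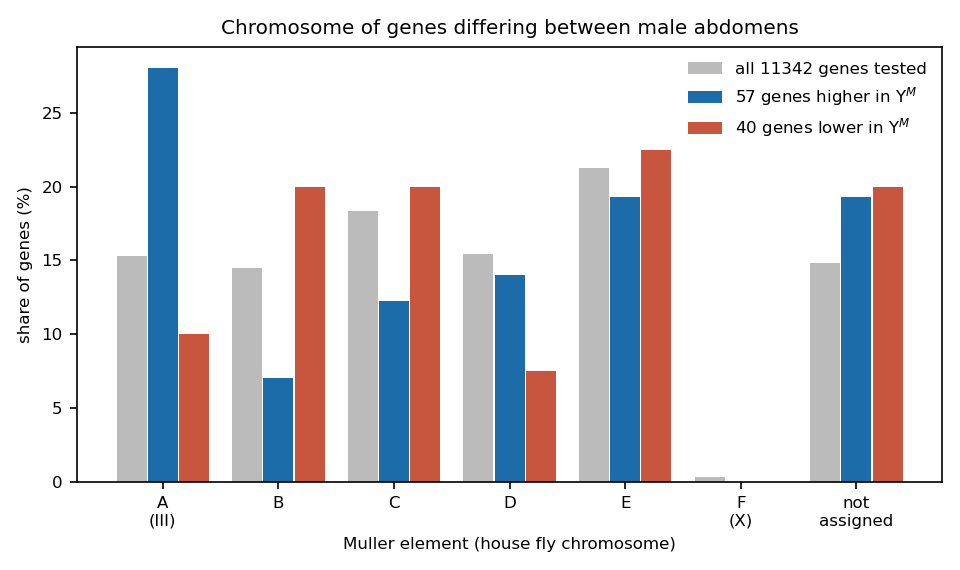
Share of genes on each Muller element among all 11342 tested genes (grey), the 57 genes higher in YM (blue) and the 40 lower (red). Element A, chromosome III, holds 28.1% of the higher genes, 10% of the lower genes and 15.3% of all tested genes.

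Genes with a symbol were few. Of the 53 with deposited values, 44 were tested, and limma called none, with 10 at an unadjusted p under 0.05; edgeR called 0 and DESeq2 called 7, 3 higher and 4 lower in YM. These counts, and those of the lists, stand beside the 16.2% of all tested genes at an unadjusted p under 0.05 and the 5.47% called by DESeq2. In 28 of the 44 the value was lower in YM (63.6%, beside 47.2% of all tested genes). The lists that follow were put together with earlier results of these data known.

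Superoxide dismutases, which break down superoxide radicals, had lower values in YM in all 3 tested members, beside 47.2% of all tested genes. None of the 3 overlapped between the groups, as 24.1% of all tested genes did not, and none passed limma's test over all genes. SOD measured 2149, 2366 and 2446 in YM and 4539, 6329.5 and 5779 in IIIM #2 (log2 difference −1.25, SE 0.31, limma adjusted p = 0.0997). SOD2 measured 1987, 2389 and 1883 and 3480.0, 2835 and 3997 (log2 difference −0.71, SE 0.21, limma adjusted p = 0.148), and SOD1 234, 329 and 236 and 531, 625 and 380.4 (log2 difference −0.93, SE 0.34, limma adjusted p = 0.221). The females had the same direction at smaller size, SOD at 1253 in IsoCS and 2019 in CSrab, SOD2 at 1708 and 2378, and SOD1 at 290.3 and 345. All 3 had an unadjusted p under 0.05, as 16.2% of all tested genes had, edgeR called 0, and DESeq2 called SOD and SOD2 (adjusted p = 0.00228 and 0.000467).

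CPI measured 2264, 1416 and 1256 in YM and 9597, 10546 and 7453 in IIIM #2, with no overlap and without passing the test (log2 difference −2.52, SE 0.63, limma adjusted p = 0.102). Such a lack of overlap held for 24.1% of all tested genes. CPI was called by DESeq2 (adjusted p = 0.00797) and by limma with the 6 compared libraries only (adjusted p = 0.0419). In male heads limma called it, also lower in YM (log2 difference −1.52, limma adjusted p = 0.00932). The females measured 18.02 in IsoCS and 122 in CSrab, far below any of the 6 males and in the same direction.

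Enzymes of xenobiotic metabolism, which modify and conjugate foreign compounds such as insecticides, had lower values in YM for 8 of 11 tested members, and 0 were called by limma or edgeR (2 at an unadjusted p under 0.05, beside 16.2% of all tested genes, and 1 by DESeq2, beside 5.47%). The glutathione transferase GST-6A measured 9484, 15069 and 8358 in YM and 21590.0, 24411 and 21989 in IIIM #2 (log2 difference −1.09, SE 0.34, limma adjusted p = 0.166), and DESeq2 called it (adjusted p = 0.0353). The cytochrome P450 CYP12A2 measured 125, 130.2 and 105 and 189.7, 158 and 183 (log2 difference −0.56, SE 0.23, limma adjusted p = 0.27). CYP6D3, a P450 known from pyrethroid resistance, measured 9634, 8323 and 15988 and 16296, 18055 and 25713 (log2 difference −0.85, SE 0.41, limma adjusted p = 0.34). These 3 did not overlap between the groups, as 24.1% of all tested genes did not. In the females CYP12A2 and CYP6D3 went the other way, at 10.3 and 1009.8 in IsoCS and 4.92 and 514 in CSrab. CYB2 measured 72.3, 68.9 and 27.1 and 37.6, 17.6 and 23.02, with overlap (log2 difference 1.02, SE 0.51, limma adjusted p = 0.353). CYB1, also higher in YM on average, measured 5179, 1899 and 252 and 503, 951 and 243, with overlap (log2 difference 1.47, SE 0.99, limma adjusted p = 0.481). In the authors' deposited comparison CYB1, higher in YM, had an adjusted p under 0.05, as had 479 of 9346 genes in either direction.

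Antimicrobial genes, which are switched on by infection in flies, split the YM libraries. Diptericin measured 8528, 41034 and 3.11 in YM and 1.79, 423 and 107 in IIIM #2, attacin 940.5, 6072 and 3.26 and 12.5, 44.02 and 24.5, and defensin-1 11669, 6998 and 69.3 and 78.7, 141 and 179. YM replicates 1 and 2 were above every IIIM #2 library in each of these 3 genes and replicate 3 below most or all of them. Their log2 differences of 4.49 (SE 3.08), 3.54 (SE 2.16) and 3.82 (SE 1.56) did not pass limma's test (adjusted p 0.489, 0.44 and 0.265). Single libraries decided these values. Without YM replicate 3 the log2 differences of diptericin, attacin and defensin-1 were 8.54, 6.58 and 6.16, and defensin-1 was called (limma adjusted p = 0.00915). Within replicates 1 and 2, attacin and defensin-1 were called (limma adjusted p = 0.0469 and 0.0206). Without YM replicate 2 the differences were 1.89, 1.34 and 2.84, without YM replicate 1 that of defensin-1 was 2.47, and without IIIM #2 replicate 1 that of diptericin was 2.40. Lysozyme, which breaks bacterial cell walls, went the other way without passing, at 7.09, 0 and 4.00 in YM and 26.8, 26.4 and 55.5 in IIIM #2 (log2 difference −3.35, SE 1.19, limma adjusted p = 0.209). In females, diptericin measured 2.95 in IsoCS and 85.4 in CSrab, attacin 0.164 and 38.0, defensin-1 9.99 and 63.5, and lysozyme 20.8 and 39.8. All 4 were lower in the IsoCS female, with 1 library for each strain. In the authors' deposited comparison attacin and defensin-1, higher in YM, had an adjusted p under 0.05, and diptericin did not. There 479 of 9346 genes were under 0.05 in either direction. No member was called by limma or edgeR (2 at an unadjusted p under 0.05, beside 16.2% of all tested genes), and DESeq2 called 3 of the 4, beside 5.47%. The part of this split within YM in the other differences was not tested. In whole abdomens fewer cells of a type and less RNA per cell cannot be told apart.

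Of the other lists, none had a call by limma, edgeR or DESeq2 as run here. In the authors' deposited comparison yp3, lower in YM, had an adjusted p under 0.05, as had 479 of 9346 genes in either direction. The 5 tested chaperones had 3 members lower and 2 higher, none at an unadjusted p under 0.05, with HSP70 at 26043, 27550.0 and 20907 in YM and 24932, 35310.0 and 32558 in IIIM #2 (log2 difference −0.31, SE 0.25, limma adjusted p = 0.558) and the chaperonin subunit CCT-delta at 743, 513 and 368 and 395, 202 and 452 (log2 difference 0.65, SE 0.37, limma adjusted p = 0.404). The 4 serpins, inhibitors of serine proteases, all had lower values in YM, none at an unadjusted p under 0.05, with SPN15 at 418, 712 and 536 and 592, 766 and 881 (log2 difference −0.44, SE 0.25, limma adjusted p = 0.402) and SPN13 at 7.09, 15.3 and 6.66 and 17.9, 35.2 and 10.96. Sxl, whose Drosophila counterpart directs female development, measured 238, 161 and 271 in YM and 315, 361 and 264 in IIIM #2 (log2 difference −0.51, SE 0.22, limma adjusted p = 0.294), with overlap. The yolk protein gene yp3 measured 53.9, 76.6 and 58.2 and 195, 343 and 49.3 in males (log2 difference −1.25, SE 0.86, limma adjusted p = 0.488), far below the 3487 and 2460.1 of the females. IR25a, a sensory receptor subunit, measured 369, 429 and 146 and 204, 123 and 86.6 (log2 difference 1.13, SE 0.77, limma adjusted p = 0.484). The water channel AQP measured 509, 613 and 367 and 1179, 572 and 465 (log2 difference −0.48, SE 0.47, limma adjusted p = 0.643), and ODC, ornithine decarboxylase of polyamine synthesis, 431, 467 and 444 and 589, 511 and 480.1 (log2 difference −0.23, SE 0.33, limma adjusted p = 0.764). Apart from CCT-delta and IR25a the values of these named genes were lower in YM on average, and in each but ODC the groups overlapped. The genes named here are only part of the lists. All 3 tested nervous and sensory genes, IR25a among them, had higher values in YM, none at an unadjusted p under 0.05.

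**Figure D5:**
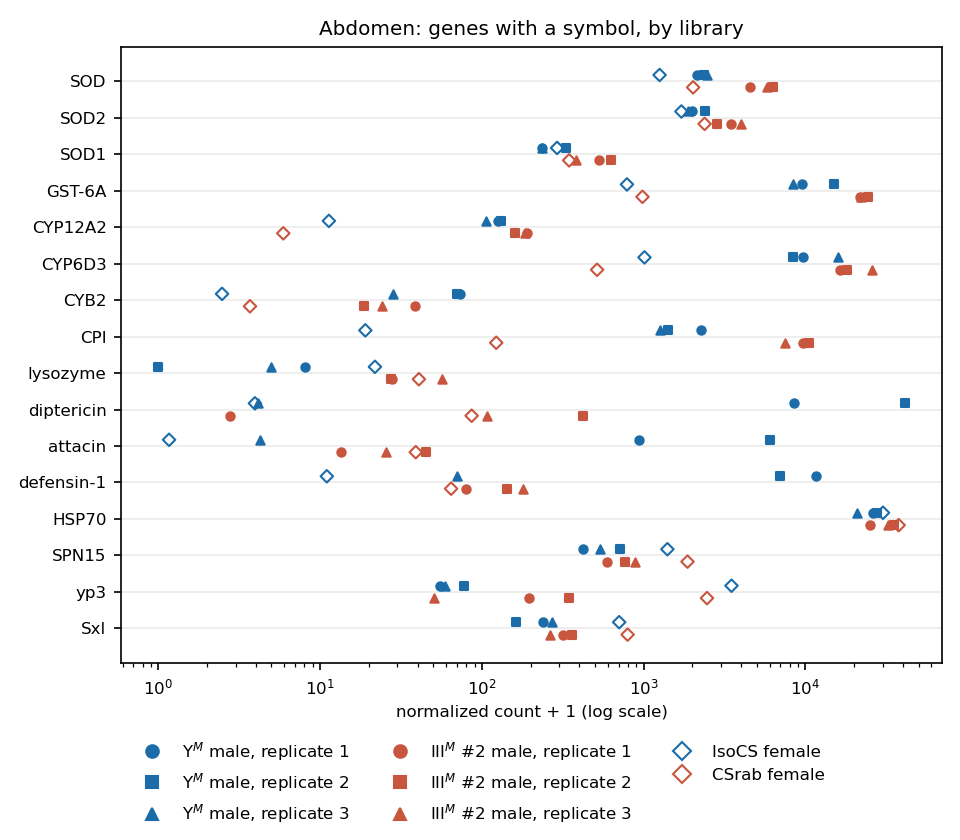
Normalized counts plus 1 (log scale) of genes with a symbol in abdomen, with filled symbols for the 3 male libraries of each genotype and open diamonds for the single females. The superoxide dismutases, GST-6A, CYP12A2, CYP6D3, CPI and lysozyme separate the genotypes, as 24.1% of all tested genes do, and none of them passed limma's test. Diptericin, attacin and defensin-1 split YM replicates 1 and 2 from replicate 3.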

How the data were processed

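Poly(A) RNA of dissected abdomens and heads was sequenced from TruSeq Stranded mRNA libraries, per the labels' protocols. Tools listed in the submitters' processing notes, with no role given, were DESeq2 1.16.1, HTSeq 0.9.1, HISAT2 0.12.2 and CASAVA 1.8. No source used here gives a genome build. The authors deposited a signal per library, normalized counts, in 1 table per tissue of 16540 genes. All values were whole multiples of the library's smallest value (100% within 0.001 reads), which gave whole reads and depth. The deposited log2 fold changes and adjusted p-values of the authors' comparison were used only where named. Of the identifiers 13644 matched the RefSeq gene table used for names.

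Genes with at least 10 in at least 3 of the 12 male abdomens were tested on log2(value + 1) with limma 3.58.1 (R 4.3.3; 1 mean per genotype, variance trend, robust), two-sided, adjusted by Benjamini-Hochberg over all tested genes. Differences are on that scale, which understates low genes, and SE and adjusted p are from limma. Alternatives were TMM factors, other filters and pseudocounts, a replicate block, edgeR 4.0.16 and DESeq2 1.42.0 on the reads, and left-out libraries. The fit was first run on simulated reads with the same setting of spread for all genes. The simulated libraries shared no deviation by replicate number and none was made outlying, so those features were not tried. Reads shared with near-identical genes could not be checked. Values are mean ± SD with n = 3 libraries a genotype. The p-values rest on the spread between libraries within a genotype, pooled over the 4 male genotypes, and not on a spread between strains of 1 type. The report names the 10 largest called differences in each direction without overlap and with a mean of at least 50, and members of lists; the lists for tissues and products other than those given had no named genes in the table. The genotypes, lists and rules were chosen with earlier results of these data known. Figures were drawn with matplotlib 3.10.9.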

Additional observations from a re-analysis of the deposited data

Results flagged for a closer look

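In 2 of 11486 genes limma's interaction of strain and sex passed the threshold, with each single female taken to vary as the males do. There is no female replicate to check that assumption, so the values rest on 1 female library for each strain. LOC109612414 measured 201, 314 and 156 in YM and 639, 775 and 424 in IIIM #2 male abdomens, and 38.99 in the IsoCS and 11102 in the CSrab female. The male log2 difference minus the female one was 6.65 (SE 0.62, limma adjusted p = 0.00487). LOC101895047 measured 418, 276 and 316 and 339.9, 326 and 357 in the males, which overlapped, and 579 in the IsoCS and 47.8 in the CSrab female, an interaction of −3.61 (SE 0.41, limma adjusted p = 0.0153). In both genes each female lay outside the range of the males of her strain.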

How the results depend on the processing

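The count of 97 called genes moved by more than 1.5 times with a mean of at least 50 as the filter (64), a pseudocount of 5 (160), the 6 compared libraries only (63), edgeR (51), DESeq2 (617), the replicate block (635, all 97 among them), replicates 1 and 2 only (159) and both replicate 2 libraries left out (6). It stayed within that range with TMM factors (96), no filter (123) and a pseudocount of 0.1 (67). Without 1 library at a time it was 7 (without IIIM #2 replicate 3) to 50 (without YM replicate 3), with 9 and 15 without YM replicates 1 and 2 and 14 and 8 without IIIM #2 replicates 1 and 2. The replicate numbers were not taken to pair the libraries: deviations from the group means correlated at 0.07, 0.28 and 0.46 across genes for numbers 1, 2 and 3, and 5 of 6 libraries correlated best with their own number. The replicate block added calls of SOD, SOD1, GST-6A, CPI and lysozyme (adjusted p 0.0296, 0.038, 0.0368, 0.0405 and 0.0317). The interaction with sex gave 2 genes with either other pseudocount and 1 to 2 without 1 male library at a time, with 1 without any IIIM #2 replicate or without YM replicate 3. The share of called genes with the same direction in females was 79.4% with a pseudocount of 5 and 87.8% for genes with at least 10 in a female. No named gene changed direction under any alternative run. The share of element A among higher genes was recomputed with alternatives chosen after seeing the data (TMM factors, edgeR, DESeq2, replicates 1 and 2) at 22.2% to 27.3%, and 22.8% with the block. Of the 20 genes with the largest differences, 6 lost their call with edgeR and 14 without both replicate 2 libraries; the cause was not tested. The shallow replicate 2 libraries limit genes below 22.97 (YM) and 26.4 (IIIM #2) normalized counts, the worth of 3 reads there.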
